A study of Homo sapiens with 18 samples.

Results

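The comparison described here is the difference between the responses of a lung and a colon adenocarcinoma line, NCIH838 and DLD1, to CRISPR knockout of KDSR. For each gene the change from control to knockout in DLD1 was subtracted from the same change in NCIH838, on the scale of log2(TPM + 1). TPM is a transcript level corrected for gene length and for library size. A gene entered if its mean was at least 1 TPM in both lines, which left 13467 of the 27166 genes in the deposited table, 10686 of them protein-coding. The series holds RNA-seq of these lines and of a liver line, each with control and knockout cells in 3 biological replicates. DLD1 CTRL and NCIH838 CTRL cells carried lentiCRISPR v2, a lentiviral vector for Cas9 and a guide, with a non-targeting guide. DLD1 KDSR KO and NCIH838 KDSR KO cells carried the same vector with a guide against KDSR. Puromycin selection lasted 5 days in all 4 groups. DLD1 cells were collected 8 days after infection and NCIH838 cells after 10. The knockout cells were transduced populations with 1 guide, with no single clone named. The line and the day of collection cannot be told apart in any difference given below.

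KDSR, 3-ketodihydrosphingosine reductase, sits in the membrane of the endoplasmic reticulum (ER) and carries out the second step of sphingolipid synthesis. Serine palmitoyltransferase joins serine to palmitoyl-CoA, KDSR reduces the resulting ketone to dihydrosphingosine, and ceramide synthases and a desaturase turn that into ceramide. Cells that meet misfolded protein or a disturbed membrane switch on separate programs, among them the heat shock response in the cytosol, the unfolded protein response of the ER, the integrated stress response through ATF4 and CHOP, and the antioxidant response through NRF2. The question of the comparison was which of these programs, and which others, moved alike in both lines, more in one, or in opposite directions.

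The 12 libraries held between 17039634 and 20339678 reads assigned to genes. Of 10 colon epithelial markers 8 were at 1 TPM or more in DLD1, and the sum of the 10 ran from 1058 to 1156 TPM in its controls and from 827 to 861 TPM in its knockout libraries. Of 10 lung epithelial markers 8 were in the table and 2 reached 1 TPM in NCIH838, where their sum ran from 29.6 to 37.2 TPM. NKX2-1, SFTPB and SLC34A2, which define lung alveolar cells, were at or below 0.324 TPM in all 6 NCIH838 libraries. Distance between replicates was taken as a chi-square of read counts per gene. Within the NCIH838 KDSR KO group it was 16.21 between replicates 1 and 2, 9.949 between 2 and 3 and 6.545 between 1 and 3. Replicate 2 thus stood furthest from its partners there. Among the DLD1 controls replicate 3 did, with 10.33 and 7.921 against replicates 1 and 2.

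KDSR itself lies on chromosome 18 at 63327726 to 63367510, minus strand, in hg38. Its level in DLD1 was 29.7, 32.2 and 27.2 TPM in the controls and 19.5, 19.4 and 18.7 TPM where the label says KDSR KO. In NCIH838 it was 11.9, 13.7 and 14.7 TPM in the controls and 13.8, 12.5 and 12.3 TPM under the KO label. The groups were apart in DLD1 and overlapped in NCIH838, so the messenger RNA lends no support to the knockout label in NCIH838. The change was -0.60 in DLD1 (log2, adjusted p = 0.000775 by limma) and -0.05 in NCIH838 (adjusted p = 0.681), and the difference of 0.55 (95% interval 0.26 to 0.83) passed the test (adjusted p = 0.0111). The share of edited alleles was not measured in either line, and a difference in its extent cannot be told apart from a difference between the lines. Below, KO stands for libraries labelled KDSR KO.

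Across the 13467 genes the response was wider in NCIH838. A gene was called where limma's adjusted p was under 0.05, over all genes tested. In DLD1, 729 genes rose and 1629 fell, which is 5.41% and 12.1% of the genes. The falls numbered 835 without DLD1 CTRL replicate 3, and 1037, 1044 and 1005 without DLD1 KDSR KO replicates 1, 2 and 3. In NCIH838, 2116 rose and 3760 fell, or 15.7% and 27.9%. Which direction prevailed depended on the scaling: rises made up 30.9% of the DLD1 calls and 36% of the NCIH838 calls, but 50% and 45.5% with median ratio scaling and 58.3% and 46.9% with quantile normalization. The difference itself was called for 2457 genes (18.2%), with 1292 higher in NCIH838 (9.59%) and 1165 lower (8.65%). Rises made up 52.6% of these, 49.4% with median ratio scaling, 46.2% with quantile normalization and 43% with mitochondrial and rRNA genes left out. A difference beyond 1, a doubling of the ratio between the 2 responses, was called for 147 genes upward and 82 downward.

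Most genes called in both lines moved the same way. The 509 genes called higher in both (3.78% of all) were 69.8% of the DLD1 rises and 24.1% of the NCIH838 rises, and the 986 called lower in both (7.32%) were 60.5% and 26.2% of the falls. The shared falls numbered 587 without DLD1 CTRL replicate 3, 639 and 645 without DLD1 KDSR KO replicates 1 and 3, 653 with median ratio scaling and 507 with quantile normalization. Among the shared rises the difference was not called for 357 genes, was called with the larger rise in NCIH838 for 127, and with the larger rise in DLD1 for 25. Among the shared falls the counts were 830, 154 and 2. A missed call does not show equal responses, so the interval was used: the 95% interval of the difference lay within 0.5 either way for 6392 genes (47.5%), among them 322 of the shared rises and 738 of the shared falls. Another 849 genes rose and 853 fell in NCIH838 alone with the difference called, against 69 and 157 in DLD1 alone. For 3068 genes called in 1 line the difference was not called, and these are not line-specific by any test made here. Opposite calls were found for 124 genes (0.921%), 36 higher in DLD1 and lower in NCIH838 and 88 the other way. That count was 78 without DLD1 CTRL replicate 3, 66 without DLD1 KDSR KO replicate 2 and 72 without DLD1 KDSR KO replicate 3. Across genes the 2 responses had a Pearson correlation of 0.349, a description over genes that are not independent.

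**Figure D1:**
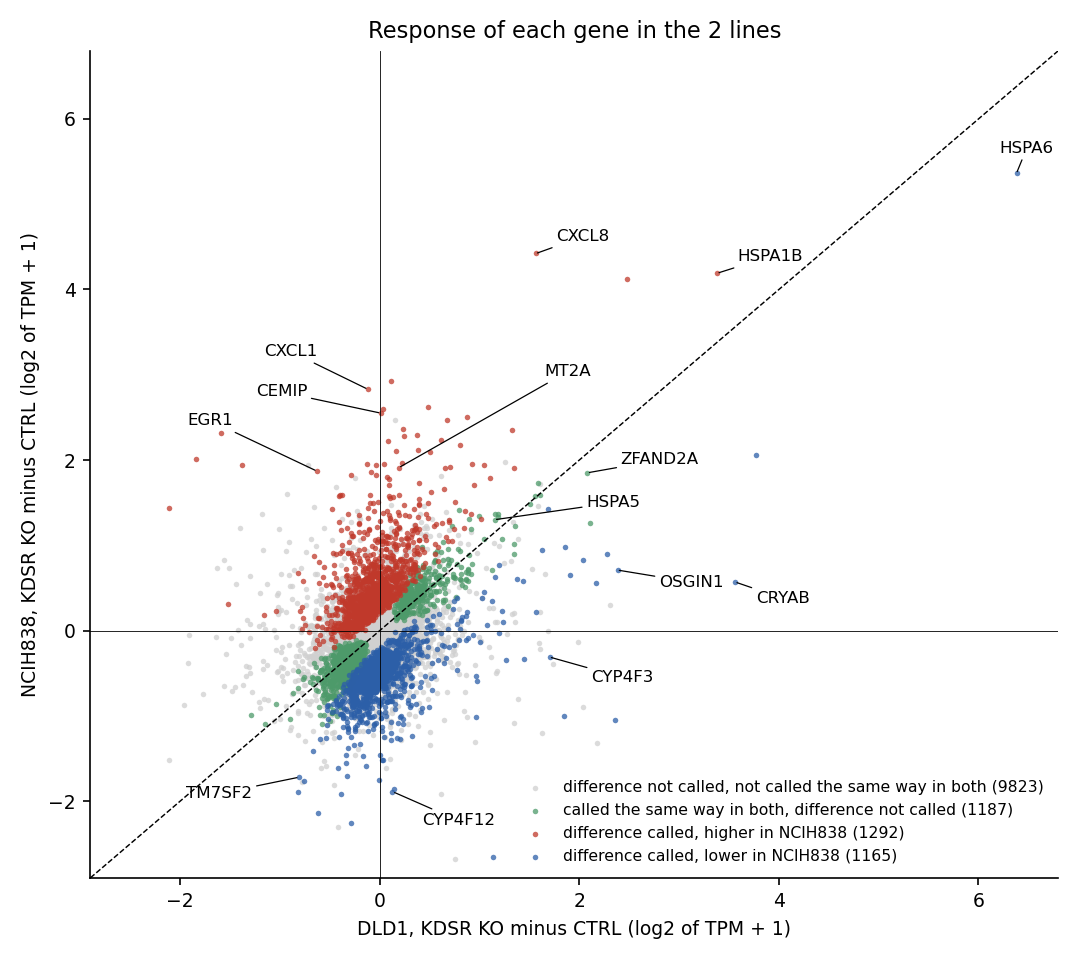
Each point is 1 of 13467 genes, placed by its change from control to KO in DLD1 (horizontal) and in NCIH838 (vertical), both as differences of mean log2(TPM + 1) over 3 libraries a group, with the dashed line marking equal change. The 1292 genes whose change was higher in NCIH838 (red) lie above the line and the 1165 whose change was lower there (blue) below it, while HSPA6 sits far out and just below the line with 6.38 in DLD1 and 5.36 in NCIH838.

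Cytosolic chaperones rose in both lines. HSPA6, an HSP70 chaperone made almost only under stress, was at 1.72, 3.14 and 2.85 TPM in the DLD1 controls and at 286, 306 and 286 TPM in the KO libraries. In NCIH838 it went from 3.81, 4.20 and 3.81 TPM to 202, 220 and 186 TPM. Every KO library was far above every control in both lines, a 114-fold rise in DLD1 and a 51.5-fold rise in NCIH838. The rise was larger in DLD1 by 1.02 on the log2 scale (difference -1.02, 95% interval -1.43 to -0.61, adjusted p = 0.00209), a call that was lost with a pseudocount of 0.1 TPM (-1.17, adjusted p = 0.156). The near-identical stress chaperone genes HSPA1A and HSPA1B can exchange reads, so they were summed: 135, 133 and 153 TPM became 1524, 1453 and 1412 TPM in DLD1, and 201, 217 and 212 TPM became 3354, 4314 and 3592 TPM in NCIH838. The sum rose 10.4-fold in DLD1 and 17.9-fold in NCIH838, the reverse of the order for HSPA6.

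BAG3 and ZFAND2A, also of the protein stress response, moved almost equally, as did JUN, which is counted below among the early response genes. BAG3, a cochaperone that leads HSP70 clients to autophagy, went from 318.5, 326.7 and 360.8 TPM to 1003, 976 and 974 TPM in DLD1, and from 137, 148 and 146 TPM to 414, 466 and 418 TPM in NCIH838. These were rises of 2.94-fold and 3.01-fold, with a difference of 0.03 (95% interval -0.17 to 0.23). ZFAND2A, a stress-induced partner of the proteasome, rose 4.36-fold and 3.73-fold, with a difference of -0.22 (95% interval -0.45 to 0.01). JUN, a subunit of the AP-1 transcription factor, rose 3.09-fold and 3.08-fold, with a difference of -0.02 (95% interval -0.28 to 0.24). For these genes the interval of the difference stayed within 0.5 log2 units, on rises of more than 1.5.

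Of 36 heat shock genes measured in both lines, 27 rose in DLD1 and 22 rose in NCIH838, 20 of them in both. The median change was 0.43 in DLD1 and 0.33 in NCIH838, beside medians of -0.07 and -0.09 over all 13467 genes. The difference was called lower in NCIH838 for 10 and higher for 3, HSPA1A, HSPA1B and the heat shock factor HSF1. The small heat shock protein CRYAB stood apart: it was at 0.0641, 0 and 0 TPM in the DLD1 controls and at 11.9, 11.9 and 9.59 TPM in the KO libraries, whereas NCIH838 went from 4.76, 6.02 and 5.28 TPM to 7.57, 9.10 and 8.69 TPM. CRYAB was thus close to the floor in 1 control group alone, and its KO levels lay between 7.57 and 11.9 TPM over both lines. Its difference was -2.99 (95% interval -3.46 to -2.52, adjusted p = 5.47e-07). DNAJB4, an HSP70 cochaperone, rose 3.05-fold in DLD1, while in NCIH838 its 3 KO libraries at 82.2, 58.9 and 69.8 TPM overlapped the controls at 59.6, 60.7 and 59.8 TPM (difference -1.35, 95% interval -1.84 to -0.87, adjusted p = 0.000926). HSPH1, an HSP110 exchange factor, rose 2.24-fold in DLD1 and 1.56-fold in NCIH838 (difference -0.52, adjusted p = 0.00312). DNAJB1, the main inducible partner of HSP70, rose 3.22-fold and 2.69-fold, and its difference of -0.26 (adjusted p = 0.0197) was lost with quantile normalization (-0.08, adjusted p = 0.333). HSPA8, the abundant constitutive HSP70, rose 1.59-fold and 1.5-fold, with a difference of -0.08 (95% interval -0.19 to 0.03). BAG1, another HSP70 exchange factor, was 0.592 times its control level in NCIH838 (adjusted p = 1.10e-07) and 0.971 times in DLD1 (adjusted p = 0.669), a called difference of -0.69.

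ER chaperone and ER degradation genes rose in both lines as well, here with the larger counts in NCIH838. Of 34 measured, 19 rose in DLD1, 28 in NCIH838 and 18 in both, and the medians were 0.23 and 0.37. Over all genes 5.41% rose in DLD1, 15.7% in NCIH838 and 3.78% in both, so rises were more often called in NCIH838 in general. HSPA5, the ER HSP70 also called BiP, went from 829, 915 and 828 TPM to 1909, 1870 and 1946 TPM in DLD1. In NCIH838 it went from 534, 535 and 549 TPM to 1395, 1315 and 1271 TPM. No KO library overlapped a control, and the difference was 0.14 (95% interval -0.03 to 0.31, adjusted p = 0.241), although it was called with median ratio scaling (0.16, adjusted p = 0.0456) and with quantile normalization (0.25, adjusted p = 0.0244). HSP90B1, the ER HSP90, and HYOU1, an ER exchange factor, had differences of -0.11 and 0.10 with intervals from -0.30 to 0.08 and from -0.08 to 0.27. The difference was called higher in NCIH838 for 9 of the 34, beside 9.59% of all genes. ERN1, the ER stress sensor IRE1, rose 1.43-fold in DLD1 and 2.36-fold in NCIH838 (difference 0.66, adjusted p = 0.00125). XBP1, whose messenger is spliced by that sensor, rose 1.13-fold and 1.35-fold (difference 0.26, adjusted p = 0.0101). The single ER gene whose difference was called lower in NCIH838 was HERPUD1, part of the degradation machinery. It rose 2.32-fold in DLD1 against 1.71-fold (difference -0.43, adjusted p = 0.000374).

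The promoters of the 2 leading shared chaperones are shown because each holds the sequence that defines its program. They are the 250 bases before the RefSeq start in GRCh38.p14, read 5′ to 3′, HSPA6 at chr1:161524290-161524539 on the plus strand and HSPA5 at chr9:125241344-125241593 on the minus strand. Capitals mark a heat shock element in the first (3 alternating GAA and TTC triplets, each 2 bases from the next) and an ER stress element in the second (CCAAT and CCACG, 9 bases apart), on either strand.
HSPA6: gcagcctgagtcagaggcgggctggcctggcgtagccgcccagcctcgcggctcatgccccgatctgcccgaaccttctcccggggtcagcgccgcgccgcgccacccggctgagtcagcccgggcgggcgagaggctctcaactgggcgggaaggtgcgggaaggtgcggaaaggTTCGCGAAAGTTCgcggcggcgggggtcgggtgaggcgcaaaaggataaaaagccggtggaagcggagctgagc
HSPA5: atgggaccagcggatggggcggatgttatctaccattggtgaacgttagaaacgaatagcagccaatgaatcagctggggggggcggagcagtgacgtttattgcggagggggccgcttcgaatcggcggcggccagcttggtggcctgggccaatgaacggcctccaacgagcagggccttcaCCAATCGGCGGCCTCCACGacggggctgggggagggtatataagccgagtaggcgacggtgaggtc
The windows shown here and below were picked after matches had been looked up, and those of HSPA1B, ZFAND2A and CXCL8 were first considered and held none of their group's motif, which says nothing of the factor. In all, 8 motifs were searched, each on both strands of the 300-base window from 250 bases before to 50 after the start. Windows matched 9304 of the 13467 genes (69.1%), too few for a comparison of shares. The search was therefore limited, after that count was known, to protein-coding genes, of which 8802 of 10686 (82.4%) matched. The heat shock element was in 6 of 412 promoters of genes higher in both lines (1.46%), in 0.261% of the matched genes and in 0.487% of all 27305 promoters. The ER stress element was in 7 of the 412 (1.7%), in 0.159% of the matched genes and in 0.0806% of all promoters. The antioxidant response element (TGAC and GCA, 3 bases apart) was in 36 of the 412 (8.74%), in 2.82% of the matched genes and in 3.26% of all promoters. These shares are descriptions, with no test, and a match is not a binding site.

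Many proteasome genes rose as well. Of 45 measured, 20 rose in DLD1 and 27 in NCIH838, 18 of them in both, beside rises of 5.41% and 15.7% over all genes. Falls were called for 3 in DLD1 and 5 in NCIH838, 3 of them in both. Among the 13 activators and assembly factors, 1 rose in each line, while 3 fell in DLD1 and 5 in NCIH838. Of the 18 genes of the 19S cap, which unfolds substrates, 13 rose in DLD1 and 17 in NCIH838. PSMC4, an ATPase of the cap, went from 227, 237 and 248 TPM to 367, 370 and 379 TPM in DLD1, and from 549, 575 and 574 TPM to 928, 985 and 893 TPM in NCIH838. The groups did not overlap, the rises were 1.57-fold and 1.65-fold, and the difference was 0.08 (95% interval -0.05 to 0.20). The difference was called higher in NCIH838 for 8 of the 45, among them the ubiquitin receptor ADRM1 (0.62, adjusted p = 0.00298) and the cap subunit PSMD3, which rose 1.2-fold in DLD1 and 1.77-fold in NCIH838 (0.56, adjusted p = 0.00035).

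Within the integrated stress response the 2 lines divided by gene. ATF4, the transcription factor at its head, rose 1.24-fold in DLD1 and 1.23-fold in NCIH838, a difference of -0.01 (95% interval -0.13 to 0.11). DDIT3, which encodes CHOP, was at 25.7, 23.1 and 24.4 TPM in DLD1 controls and 95.8, 86.3 and 90.3 TPM in the KO libraries. In NCIH838 it went from 23.1, 24.7 and 22.3 TPM to 48.8, 45.9 and 46.4 TPM. The control levels overlapped between the lines, and the KO level in DLD1 was above every NCIH838 library (difference -0.87, 95% interval -1.06 to -0.68, adjusted p = 9.65e-06). PPP1R15A, the phosphatase subunit GADD34 that ends the response, went from 75.1, 81.5 and 87.1 TPM to 201, 208 and 206 TPM in DLD1, and from 48.8, 41.6 and 42.7 TPM to 221, 256 and 215 TPM in NCIH838. Here the rise was the larger in NCIH838 (difference 1.03, adjusted p = 1.74e-05). TRIB3, a pseudokinase induced by CHOP, rose 2-fold in NCIH838 and was 1.10 times its control in DLD1 (adjusted p = 0.202, difference 0.84, adjusted p = 8.41e-05). SESN2, a stress-induced brake on mTORC1, rose 1.93-fold and 3.33-fold (difference 0.77, adjusted p = 0.000814).

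Of the 13 regulators of this response measured, 5 had the larger change in NCIH838 and 3 in DLD1. Of its 9 amino acid transporters, 5 had a difference called lower in NCIH838. SLC7A11 and SLC3A2, the 2 chains of the cystine importer, rose 2.66-fold and 1.77-fold in DLD1 and 1.55-fold and 1.12-fold in NCIH838 (differences -0.77 and -0.66, adjusted p = 0.0206 and 8.83e-05). The call of SLC3A2 within NCIH838 (adjusted p = 0.0440) was lost in 16 of the 25 alternatives, among them leaving out any 1 NCIH838 library (0.0737 to 0.175) or DLD1 CTRL replicate 2 or any 1 DLD1 KDSR KO library (0.0531 to 0.0549). PHGDH, the first enzyme of serine synthesis, which supplies the substrate of sphingolipid synthesis, was at 120, 129 and 118 TPM in NCIH838 KO libraries against 159, 180 and 166 TPM in the controls. In DLD1 it was 84.9, 91.3 and 91.1 TPM against 83.8, 90.8 and 90.4 TPM, with the groups overlapping. It fell in NCIH838 (adjusted p = 1.50e-05), and the difference was -0.47 (95% interval -0.64 to -0.30, adjusted p = 0.00106). ASNS, asparagine synthetase, had a difference of -0.27 (95% interval -0.60 to 0.06, adjusted p = 0.249).

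**Figure D2:**
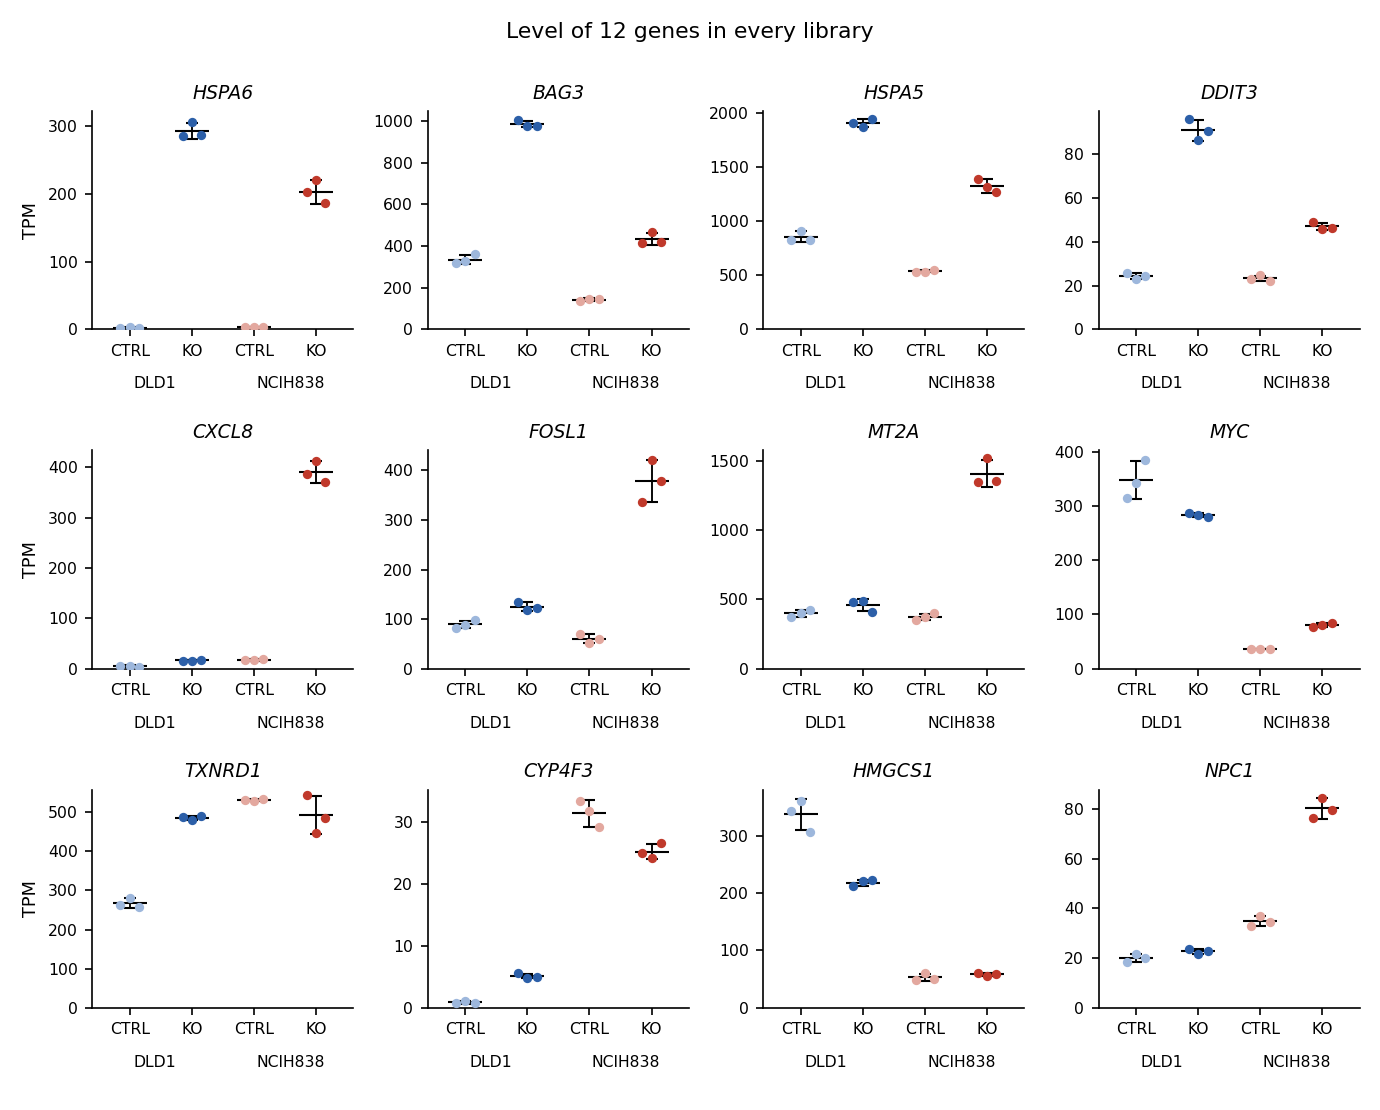
TPM of 12 genes in every library, with control and KO of DLD1 in blue and of NCIH838 in red, the bar marking the mean and the whiskers 1 SD over 3 libraries. HSPA6, BAG3 and HSPA5 rose in both lines, CXCL8 and FOSL1 rose far more in NCIH838, MT2A rose in NCIH838, TXNRD1 and CYP4F3 rose in DLD1, TXNRD1 from 267 to 486 TPM, and MYC fell in DLD1 and rose in NCIH838.

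Chemokines, cytokines and NF-kB targets showed a wide gap between the lines. Of 19 measured, 17 rose in NCIH838 and 7 in DLD1, and the difference was called for 15, each higher in NCIH838. The median change was 1.2 in NCIH838 and 0.04 in DLD1. CXCL8, which encodes the neutrophil attractant interleukin-8, was at 17.1, 16.2 and 18.5 TPM in NCIH838 controls and at 387, 413 and 371 TPM in the KO libraries. In DLD1 it went from 5.99, 5.51 and 3.28 TPM to 14.6, 16 and 17.9 TPM. Both lines rose without overlap, 22.6-fold and 3.28-fold, and the difference was 2.86 (95% interval 2.36 to 3.36, adjusted p = 1.65e-06). CXCL1, a related chemokine, was at 6.69, 7.82 and 9.10 TPM in NCIH838 controls and 56.9, 67.9 and 60.9 TPM in KO, while in DLD1 the controls at 5.10, 4.84 and 5.03 TPM lay within the KO range of 3.92 to 5.95 TPM. Its difference was 2.95 (95% interval 2.58 to 3.33, adjusted p = 1.16e-07). CXCL2 and CXCL3 had differences of 2.04 and 2.11 (adjusted p = 1.65e-06 and 2.47e-06). Some genes of this group share sequence, and the treatment of reads that fit several genes is not known here.

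The promoters of CXCL1 and CXCL2 are shown because these neighbours carry the same NF-kB element and rose together in NCIH838. They cover the 250 bases before the start, CXCL1 at chr4:73869143-73869392 on the plus strand and CXCL2 at chr4:74099196-74099445 on the minus strand of GRCh38.p14 (RefSeq). Capitals mark the NF-kB element (GGG and TTTCC, 2 bases apart), on either strand.
CXCL1: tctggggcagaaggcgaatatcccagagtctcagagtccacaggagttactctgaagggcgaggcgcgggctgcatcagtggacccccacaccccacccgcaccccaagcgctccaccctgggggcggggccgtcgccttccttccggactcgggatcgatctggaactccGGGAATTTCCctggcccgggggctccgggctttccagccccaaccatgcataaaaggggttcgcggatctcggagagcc
CXCL2: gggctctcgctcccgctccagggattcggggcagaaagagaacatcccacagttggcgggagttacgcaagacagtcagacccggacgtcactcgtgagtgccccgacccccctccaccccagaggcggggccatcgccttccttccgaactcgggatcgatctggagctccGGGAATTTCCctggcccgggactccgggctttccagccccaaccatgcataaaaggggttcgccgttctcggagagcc
Over all protein-coding genes whose difference was higher in NCIH838, the NF-kB element was in 26 of 992 promoters (2.62%), close to the 2.16% of matched genes and the 1.92% of all promoters. The AP-1 element TGANTCA was in 64 of the 992 (6.45%), in 38 of 884 promoters of genes with a lower difference (4.3%), in 4.04% of matched genes and in 7.76% of all promoters. The AP-1 and antioxidant motifs can overlap, since both can begin at 1 TGAC. The C/EBP-ATF element TGATGNAAT was in 7 of the 992 (0.706%) and in 0.42% of matched genes, and the sterol regulatory element TCACNCCAC in 9 (0.907%) and in 1%.

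Cytokines and regulators of the same group followed. IL11, a cytokine of the interleukin-6 family, was at 49.1, 43.6 and 46.2 TPM in NCIH838 controls and 271, 322 and 267 TPM in KO, and near 1 TPM in all DLD1 libraries, from 0.828 to 1.65 TPM (difference 2.57, adjusted p = 3.54e-07). LIF, a cytokine of that family expressed in both lines, rose 2.20-fold in NCIH838, while the DLD1 libraries overlapped at 27.9 to 32.5 TPM in controls and 30.4 to 31 TPM in KO (difference 1.09, adjusted p = 7.31e-06). TNFAIP3, the feedback inhibitor A20, went from 9.93, 11.3 and 9.41 TPM to 40.9, 47.4 and 39.5 TPM in NCIH838 and overlapped in DLD1, with 4.23, 4.42 and 5.07 TPM against 4.02, 4.66 and 5.57 TPM (difference 1.92, adjusted p = 8.12e-07). RELB, an NF-kB subunit, had a difference of 1.22 (adjusted p = 2.15e-05). NFKBIA, the inhibitor IkB-alpha, had a difference of -0.05 (95% interval -0.21 to 0.11, adjusted p = 0.693). CCL26, the eosinophil attractant eotaxin-3, rose in both lines, 4.38-fold in DLD1 and 2.81-fold in NCIH838. Its difference of -0.85 was not called (95% interval -1.53 to -0.17, adjusted p = 0.0759), but was called in 3 of the alternatives, among them the fit of these 12 libraries alone (adjusted p = 0.0398).

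Early response genes, which growth factor and stress kinases switch on, behaved in the same way. Of 25 measured, 20 rose in NCIH838 and 6 in DLD1, with medians of 1.2 and 0.06, and the difference was higher in NCIH838 for 16. FOSL1, an AP-1 subunit, went from 70.4, 52.2 and 59.5 TPM to 337, 422 and 378 TPM in NCIH838 and from 82.5, 87.9 and 97.4 TPM to 135, 119 and 122 TPM in DLD1. It rose 6.24-fold and 1.40-fold (difference 2.14, 95% interval 1.73 to 2.56, adjusted p = 3.93e-06). The call of FOSL1 within DLD1 (adjusted p = 0.0258) was lost with the replicate block (0.0684) and without DLD1 CTRL replicate 1 or 2 or DLD1 KDSR KO replicate 1 or 3 (0.0563 to 0.0933). FOS, its founding family member, rose 4.68-fold in NCIH838 and was 1.35 times its control in DLD1 (adjusted p = 0.0829, difference 1.74, adjusted p = 3.98e-05). FOSL2 rose 1.38-fold in DLD1 and was 0.915 times its control in NCIH838 (difference -0.59, adjusted p = 2.49e-05). Its call within NCIH838 (adjusted p = 0.0397) was lost in 15 of the 25 alternatives, among them median ratio scaling (0.203) and quantile normalization (0.164). It was also lost without DLD1 CTRL replicate 2, DLD1 KDSR KO replicate 3, NCIH838 CTRL replicate 2 or 3 or any 1 NCIH838 KDSR KO library (0.0509 to 0.149), so FOSL2 was not an opposite pair of calls under these settings. AP-1 subunits thus included a shared rise (JUN), rises larger in NCIH838 and a rise in DLD1 with a lower difference (FOSL2). JUND, another subunit, was lower in NCIH838 (-0.37, adjusted p = 0.0373 by limma), a call lost in 9 of the 25 alternatives.

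SPRY4 and DUSP6, feedback inhibitors of the MAP kinase cascade, had lower control levels in NCIH838. SPRY4 was at 4.67, 3.62 and 4.01 TPM in NCIH838 controls and at 17.7, 19.1 and 18.6 TPM in KO, against 22.3 to 24.6 TPM in all DLD1 libraries. DUSP6, a phosphatase of ERK, went from 4.60, 4.18 and 4.26 TPM to 16.8, 14 and 14.4 TPM, against 102 to 127 TPM in DLD1. The KO level of NCIH838 stayed below every DLD1 library for both genes, while the differences were 1.97 and 1.39 (adjusted p = 1.90e-08 and 2.80e-07). IER3, an early response gene linked to survival, was at 101, 87.4 and 100.3 TPM in NCIH838 controls and 344, 427 and 355 TPM in KO, and overlapped in DLD1 at 297 to 329 TPM and 274 to 299 TPM (difference 2.07, adjusted p = 1.16e-07). In all, 6 of 9 genes of this feedback group had a difference higher in NCIH838.

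Growth factor, matrix and protease genes held the same pattern in part. Of 27 measured, the difference was higher in NCIH838 for 10 and lower for 7. The 7 became 3 without DLD1 CTRL replicate 1 or NCIH838 CTRL replicate 2, and 4 without DLD1 KDSR KO replicate 2 or 3 or NCIH838 CTRL replicate 3. CEMIP, which takes part in hyaluronan breakdown, went from 7.58, 9.19 and 8.22 TPM to 50, 56.7 and 54.5 TPM in NCIH838, and stayed between 37.8 and 44.9 TPM in all DLD1 libraries (difference 2.54, 95% interval 2.31 to 2.77, adjusted p = 3.68e-09). HBEGF, a ligand of the EGF receptor, rose in both, 2.25-fold in DLD1 and 4-fold in NCIH838 (difference 0.90, adjusted p = 0.00306). TGFA, another ligand, rose 3.16-fold in NCIH838 to 6.26 to 6.73 TPM, well under the 103 to 115 TPM of DLD1 (difference 1.19, adjusted p = 4.50e-07). LAMB3, a laminin chain, rose 1.54-fold in DLD1, a call lost with a pseudocount of 0.1 TPM (adjusted p = 0.0980). It was not called in NCIH838 except with array weights or without NCIH838 KDSR KO replicate 2, where it was lower (adjusted p = 0.00177 and 0.0312), and the difference was -0.79 (adjusted p = 0.000141). ERBB3, a receptor of the EGF family, fell in both lines and further in NCIH838 (difference -0.65, adjusted p = 0.000126).

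Metallothioneins are small proteins that bind zinc and copper. Of 6 genes of metallothioneins and zinc handling measured, 4 rose and 1 fell in NCIH838, 1 fell in DLD1, and the difference was called for 4, each higher in NCIH838. With median ratio scaling, with quantile normalization and with mitochondrial and rRNA genes left out, 2 also rose in DLD1. MT2A went from 350, 372 and 399 TPM to 1348, 1519 and 1356 TPM there. In DLD1 its KO libraries at 479, 487 and 410 TPM overlapped the controls at 373, 404 and 426 TPM, a change of 0.19 that was not called but was called without DLD1 KDSR KO replicate 3 (0.27, adjusted p = 0.0267), with mitochondrial and rRNA genes left out (0.22, adjusted p = 0.0433) and with array weights (0.20, adjusted p = 0.0358). The control levels were alike in the 2 lines, and the difference was 1.72 (95% interval 1.49 to 1.94, adjusted p = 1.17e-07). MT1X had a difference of 1.03 (adjusted p = 6.27e-06), and MTF1, the metal-sensing transcription factor, of 0.40 (adjusted p = 0.0035). The MT2A promoter is shown for its metal response element, in capitals (TGCGC or TGCAC, then any base, then CGGCCC, either strand), in the 250 bases before the start at chr16:56608334-56608583, plus strand.
MT2A: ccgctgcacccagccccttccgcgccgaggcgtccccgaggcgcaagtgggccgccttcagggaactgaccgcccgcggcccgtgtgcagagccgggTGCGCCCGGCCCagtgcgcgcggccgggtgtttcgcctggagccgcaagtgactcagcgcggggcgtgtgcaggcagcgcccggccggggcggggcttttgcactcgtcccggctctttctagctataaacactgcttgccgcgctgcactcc
That element was in 5 of the 992 promoters of genes with a higher difference (0.504%), in 0.329% of matched genes and in 0.212% of all promoters.

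The antioxidant group held larger rises in DLD1. Of 30 genes of the NRF2 response and related enzymes, 16 rose and 2 fell in DLD1, and 10 rose and 9 fell in NCIH838. The difference was lower in NCIH838 for 12 and higher for 1. Over all genes 5.41% rose and 12.1% fell in DLD1, 15.7% rose and 27.9% fell in NCIH838, and 8.65% had a lower difference. The group's falls in NCIH838 were close to the share over all genes. The medians were 0.31 in DLD1 and 0.06 in NCIH838. TXNRD1, thioredoxin reductase, was at 262, 281 and 257 TPM in DLD1 controls and at 487, 481 and 491 TPM in KO. In NCIH838 it was at 531, 529 and 534 TPM in controls and 544, 448 and 485 TPM in KO. The DLD1 KO level stayed below the NCIH838 controls, whose KO libraries lay on both sides of them (difference -0.98, 95% interval -1.21 to -0.74, adjusted p = 2.49e-05). GCLM, a subunit of the enzyme that starts glutathione synthesis, likewise went from 57.1, 59.9 and 50.1 TPM to 120.2, 117 and 118 TPM in DLD1, against 301 to 329 TPM in NCIH838 controls and 281 to 383 TPM in KO (difference -1.01, adjusted p = 0.000926).

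OSGIN1, an antioxidant response target, rose 5.62-fold in DLD1, from 9.78, 10.1 and 11.4 TPM to 61.3, 54.6 and 60.3 TPM. In NCIH838 it rose 1.66-fold, from 28.7, 25.5 and 25.6 TPM to 47.7, 45.2 and 39.7 TPM, a difference of -1.68 (95% interval -1.94 to -1.41, adjusted p = 5.47e-07). NQO1, a quinone reductase, rose 1.27-fold in DLD1 (adjusted p = 0.00566) and was 0.865 times its control in NCIH838 (adjusted p = 0.0293), with a difference of -0.56 (adjusted p = 0.00207). The call of NQO1 within NCIH838 was lost when that line was fitted alone (adjusted p = 0.0560) and without any 1 NCIH838 CTRL library or NCIH838 KDSR KO replicate 2 or 3 (0.0502 to 0.131). FTL, the ferritin light chain, which has processed pseudogenes that can share its reads, rose 2.04-fold and 1.31-fold (difference -0.64, adjusted p = 0.000126), the NCIH838 rise being lost with quantile normalization (0.00, adjusted p = 1.0). HMOX1, heme oxygenase, rose in both lines, 1.75-fold and 1.93-fold, with a difference of 0.13 (95% interval -0.21 to 0.48), and the autophagy receptor SQSTM1 rose 2.02-fold and 2.50-fold with the difference higher in NCIH838 (0.30, adjusted p = 0.0276).

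The CYP4F enzymes hydroxylate the end of long lipid chains, including those of sphingolipid breakdown, and ALDH3 enzymes oxidize the fatty aldehydes that follow. All 4 of the group measured in both lines had a difference lower in NCIH838. CYP4F3 was at 0.775, 1.10 and 0.760 TPM in DLD1 controls and 5.53, 4.88 and 4.89 TPM in KO, and at 33.4, 31.7 and 29.1 TPM in NCIH838 controls and 25.0, 24.1 and 26.5 TPM in KO. It rose 5.80-fold in DLD1 and fell to 0.802 times its control in NCIH838 (adjusted p = 0.0248), a difference of -2.01 (95% interval -2.32 to -1.70, adjusted p = 4.76e-07). The fall of CYP4F3 in NCIH838 was lost with quantile normalization (adjusted p = 0.0542), with a pseudocount of 0.1 TPM (0.0727), with the replicate block (0.0794) and without NCIH838 CTRL replicate 1 or 2 or NCIH838 KDSR KO replicate 1 or 2 (0.0556 to 0.0900). CYP4F11 rose in both, 5.98-fold and 1.51-fold (difference -1.61, adjusted p = 9.86e-06). CYP4F12 fell in NCIH838 from 11.6, 14.4 and 10.7 TPM to 2.82, 2.41 and 2.41 TPM and was under 2 TPM in all DLD1 libraries (difference -2.02, adjusted p = 1.42e-05).

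**Figure D3:**
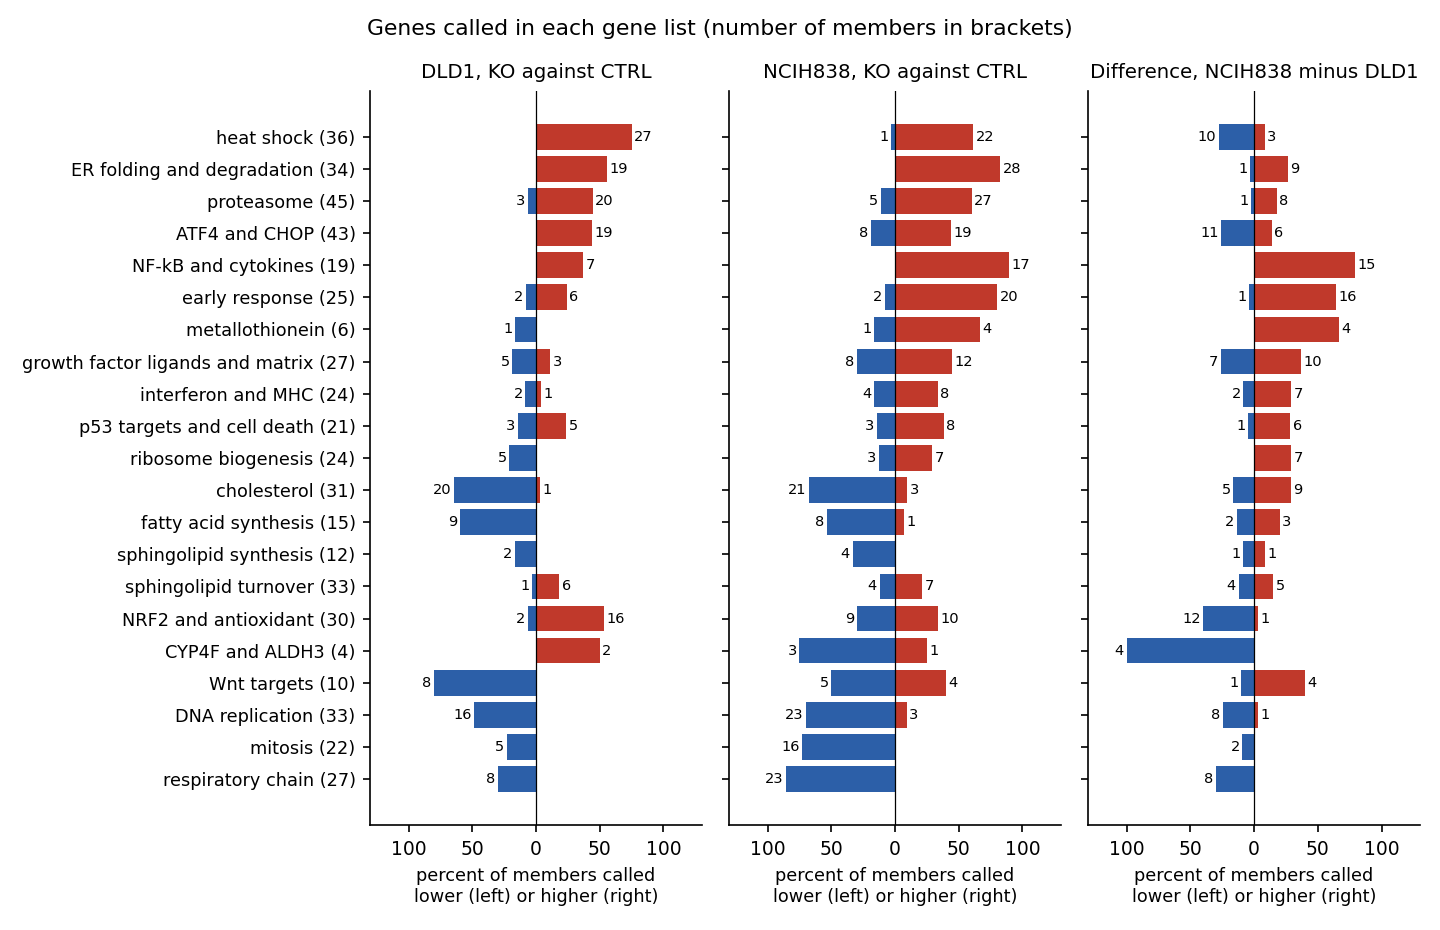
Percent of the measured members of 21 gene lists called lower (blue, left) or higher (red, right) in DLD1, in NCIH838 and for the difference of the 2 responses, with the number of genes at each bar. The first 3 lists hold more rises than falls in both lines, the NF-kB, early response and metallothionein lists extend to the right in the third panel, and the antioxidant and CYP4F lists to the left.

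Cholesterol synthesis fell in both lines, but not gene for gene. Of 31 genes of synthesis, uptake and export, 20 fell in DLD1 and 21 in NCIH838, 15 of them in both, with medians of -0.36 and -0.37. LSS, which closes the sterol ring, went from 92.9, 94.5 and 109 TPM to 62.5, 61.3 and 64.6 TPM in DLD1 and from 40.5, 42.7 and 38.9 TPM to 23.0, 27.4 and 24 TPM in NCIH838. The groups did not overlap, and the difference was -0.05 (95% interval -0.27 to 0.17). FDPS, an enzyme of the isoprenoid stage, had a difference of -0.09 (95% interval -0.25 to 0.06). In contrast, HMGCS1, an early enzyme of the pathway, went from 343, 361 and 307 TPM to 212, 220.3 and 222 TPM in DLD1, while in NCIH838 the controls at 48.3, 60.2 and 50.9 TPM overlapped the KO libraries at 61.2, 56.0 and 58.4 TPM (difference 0.76, 95% interval 0.47 to 1.06, adjusted p = 0.00178). INSIG1, the sterol-regulated anchor of the pathway's transcription factor, fell to 0.580 times its control in DLD1 and had equal means in NCIH838, 42.6 and 42.8 TPM (difference 0.80, adjusted p = 0.00285).

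Genes of sterol transport showed the gap in another form. NPC1, which exports cholesterol from lysosomes, rose 2.31-fold in NCIH838, from 32.9, 36.9 and 34.4 TPM to 76.4, 84.5 and 79.7 TPM. In DLD1 the controls at 18.4, 21.8 and 20.1 TPM overlapped the KO libraries at 23.7, 21.7 and 22.8 TPM (difference 1.01, 95% interval 0.79 to 1.23, adjusted p = 1.03e-05). The DLD1 change of NPC1, 0.17, was not called, but was with median ratio scaling (0.21, adjusted p = 0.0469) and with quantile normalization (0.22, adjusted p = 0.0366). TM7SF2, a sterol reductase, fell in both lines and further in NCIH838, to 0.298 against 0.568 times its control (difference -0.91, adjusted p = 0.000252). ABCG1, a sterol exporter, rose in DLD1 from 0.572, 0.736 and 0.837 TPM to 1.41, 1.61 and 1.35 TPM and fell in NCIH838 from 4.78, 6.02 and 5.60 TPM to 3.93, 3.86 and 4.13 TPM (difference -0.89, adjusted p = 0.000652), the DLD1 rise being lost when that line was fitted alone (adjusted p = 0.0994). Of 15 fatty acid genes, 9 fell in DLD1, or 5 without DLD1 CTRL replicate 2, and 8 in NCIH838. SCD, the stearoyl-CoA desaturase, fell to 0.706 and 0.635 times its control, a difference of -0.15 (95% interval -0.32 to 0.02). FASN, fatty acid synthase, fell in DLD1 alone (difference 0.54, adjusted p = 0.0176), and FADS1, a polyunsaturated desaturase, in NCIH838 alone (difference -0.69, adjusted p = 5.95e-05).

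Of 12 genes of sphingolipid synthesis measured, 2 fell in DLD1 and 4 in NCIH838, or 2 there without NCIH838 KDSR KO replicate 2, beside falls of 12.1% and 27.9% over all genes. Beside KDSR, the difference was called for SPTSSA, the small activating subunit of serine palmitoyltransferase, which fell in NCIH838 from 178, 203 and 192 TPM to 105, 79.2 and 85.7 TPM. In DLD1 its controls at 87.3, 91.0 and 67.9 TPM overlapped the KO libraries at 75.6, 73.7 and 73.1 TPM (difference -0.95, 95% interval -1.37 to -0.54, adjusted p = 0.00357). SPTLC2, a catalytic subunit, had a difference of 0.17 (95% interval -0.07 to 0.40). SPTLC3, an alternative catalytic subunit, fell in both lines to 0.707 and 0.369 times its control, the DLD1 call being lost without DLD1 KDSR KO replicate 1 or 2 (adjusted p = 0.0507 and 0.0519). Its difference of -0.48 was not called (adjusted p = 0.0571) but was called in 8 of the 25 alternatives. Of 33 genes of sphingolipid use and breakdown, the difference was higher in NCIH838 for 5 and lower for 4, beside 9.59% and 8.65% of all genes. SPHK1, which phosphorylates sphingosine, rose in both lines, 2.62-fold from under 1 TPM in DLD1 and 2.36-fold in NCIH838 (difference 0.44, adjusted p = 0.0305). By ratio its rise was thus the larger in DLD1. The log2(TPM + 1) changes were 0.74 in DLD1 and 1.19 in NCIH838, a scale that understates changes from under 1 TPM, so the called difference does not show a larger response in NCIH838. ASAH1, the lysosomal ceramidase, fell in NCIH838 alone (difference -0.60, adjusted p = 0.00324), and PSAP, the precursor of its activator proteins, rose more in DLD1 (difference -0.36, adjusted p = 0.00382).

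Many genes of DNA replication fell in both lines, and many of mitosis in NCIH838. Of 33 replication genes, 16 fell in DLD1 and 23 in NCIH838, and the difference was lower in NCIH838 for 8, beside 8.65% of all genes. The 8 became 5 with plain eBayes moderation and without DLD1 CTRL replicate 1, DLD1 KDSR KO replicate 3, NCIH838 CTRL replicate 1 or 3 or NCIH838 KDSR KO replicate 3. MCM3, part of the replicative helicase, fell to 0.828 and 0.713 times its control (difference -0.21, adjusted p = 0.00772). Of 22 mitosis genes, 5 fell in DLD1 and 16 in NCIH838, and the difference was lower in NCIH838 for 2. Over all genes 12.1% fell in DLD1 and 27.9% in NCIH838, and 8.65% had a lower difference, a share that the 2 mitosis genes were close to. The DLD1 falls numbered 3 with median ratio scaling, with quantile normalization and with mitochondrial and rRNA genes left out, and the lower differences 4, 5 and 5. Without 1 library the falls ranged from 2, without DLD1 CTRL replicate 3, to 5, and the lower differences from 0 to 7, the last without NCIH838 KDSR KO replicate 1. The differences of TOP2A and CCNB2, -0.39 and -0.38 (adjusted p = 0.0313 and 0.0281), were each lost when any 1 of 7 libraries was left out, NCIH838 KDSR KO replicate 2 among them (-0.30 and -0.32, adjusted p = 0.0760 and 0.0721). MKI67, a proliferation marker, had a difference of 0.08 (95% interval -0.18 to 0.34). Of 27 nuclear genes of the respiratory chain, 8 fell in DLD1 and 23 in NCIH838, with medians of -0.07 and -0.32, and the difference was lower in NCIH838 for 8. ATP5F1B, a catalytic subunit of ATP synthase, fell in NCIH838 from a mean of 1367 to one of 1066 TPM (difference -0.32, adjusted p = 0.00616). The call for ATP5F1B was lost with quantile normalization (-0.17, adjusted p = 0.0748). With that scaling, median ratio scaling or mitochondrial and rRNA genes left out the group's lower differences numbered 13 of 27, 12 of 27 or 14 of 28, and 5 without DLD1 KDSR KO replicate 2 or 3, NCIH838 CTRL replicate 3 or NCIH838 KDSR KO replicate 3. Its DLD1 falls numbered 5 with median ratio scaling, 3 without DLD1 CTRL replicate 3 and 4 without DLD1 KDSR KO replicate 3.

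Genes called in opposite directions included regulators of growth signalling. MYC, a growth-promoting transcription factor and Wnt target, was at 316, 343 and 386 TPM in DLD1 controls and 288, 284 and 280.0 TPM in KO. In NCIH838 it went from 36.4, 35.8 and 35.8 TPM to 76.7, 81.3 and 83.9 TPM. The lines moved towards each other but stayed apart, with every NCIH838 library below every DLD1 library (difference 1.43, 95% interval 1.24 to 1.62, adjusted p = 1.17e-07). EGR1, an early response factor, showed the same shape, falling in DLD1 from 143, 166 and 169 TPM to 108, 104 and 97.2 TPM and rising in NCIH838 from 1.09, 1.59 and 2.00 TPM to 6.96, 9.38 and 8.51 TPM (difference 2.49, adjusted p = 2.47e-06). Of 10 Wnt targets measured, 8 fell in DLD1, 4 rose and 5 fell in NCIH838, 4 fell in both and 3 were opposite. Over all genes 12.1% fell in DLD1, 15.7% rose and 27.9% fell in NCIH838, 7.32% fell in both and 0.921% were opposite. Among the Wnt targets SOX9 and EPHB2 were, like MYC, lower in DLD1 and higher in NCIH838 (differences 0.83 and 1.13, adjusted p = 2.58e-06 and 1.93e-05). The EPHB2 fall in DLD1 was lost with a pseudocount of 0.1 TPM (adjusted p = 0.0512). TIMP1, an inhibitor of matrix metalloproteinases, fell to 0.842 times its control in DLD1 and rose 1.67-fold in NCIH838 (difference 0.99, adjusted p = 2.47e-06), the DLD1 call being lost without DLD1 CTRL replicate 3 or DLD1 KDSR KO replicate 3 (adjusted p = 0.0586 and 0.0542). The MAP kinase phosphatase gene DUSP2 fell from 14.3, 14.5 and 14.8 TPM to 10.1, 10.4 and 10.9 TPM in DLD1 and rose from 5.70, 6.11 and 7.63 TPM to 12.1, 12.6 and 14 TPM in NCIH838 (difference 1.34, adjusted p = 2.14e-05), a call lost with a pseudocount of 0.1 TPM (1.46, adjusted p = 0.0872), as were both changes (adjusted p = 0.482 and 0.0618).

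The reverse orientation was rarer. GAB2, a docking protein of receptor kinases, went from 11.9, 12.1 and 12.7 TPM to 17.2, 19 and 17.8 TPM in DLD1 and from 27.7, 30 and 30.6 TPM to 16.6, 19.6 and 17.3 TPM in NCIH838. The controls were well apart and the KO levels overlapped (difference -1.22, 95% interval -1.45 to -0.99, adjusted p = 2.63e-06). S100P, a calcium-binding protein, rose 1.96-fold in DLD1 and fell to 0.675 times its control in NCIH838 (difference -1.50, adjusted p = 0.00013). MAP2, which binds microtubules, rose 1.39-fold in DLD1 and fell to 0.487 times its control in NCIH838 (difference -1.33, adjusted p = 8.87e-05), the DLD1 rise being lost with a pseudocount of 0.1 TPM (adjusted p = 0.0513) and without DLD1 CTRL replicate 3 or DLD1 KDSR KO replicate 1 or 2 (0.116, 0.0882 and 0.0752). TIMP3, like TIMP1 an inhibitor of metalloproteinases, went opposite to it, 1.35-fold up in DLD1 and 0.739 times its control in NCIH838 (difference -0.76, adjusted p = 0.000252).

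PPL, MARC1 and ALPP were among the 8 genes with the lowest called differences at a mean of 5 TPM or more in both lines. PPL, which encodes the junction protein periplakin, went from 23.9, 27 and 24.2 TPM to 7.72, 8.61 and 9.08 TPM in NCIH838 and overlapped in DLD1 at 84.3 to 93.4 TPM and 82.5 to 91.7 TPM (difference -1.46, adjusted p = 3.63e-06). MARC1, a mitochondrial reductase, fell in both lines, to 0.794 times its control in DLD1 and 0.252 times in NCIH838 (difference -1.38, adjusted p = 1.16e-07). ALPP, placental alkaline phosphatase, fell to 0.395 times its control in NCIH838 and overlapped in DLD1 (difference -1.39, adjusted p = 0.00013).

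**Figure D4:**
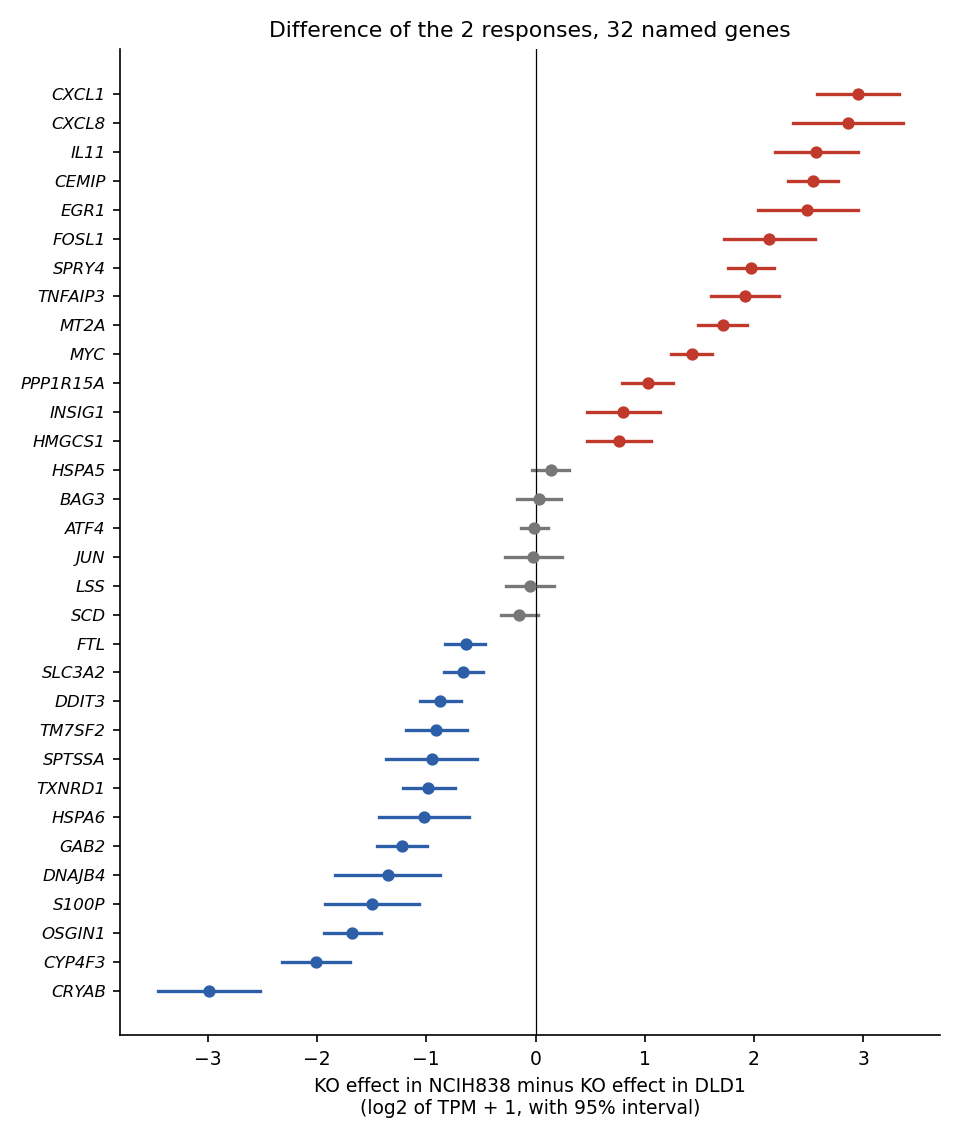
Difference between the change in NCIH838 and the change in DLD1 for 32 of the genes described, with its 95% interval (lines), on the log2(TPM + 1) scale. Red and blue mark differences called higher and lower in NCIH838, from CXCL1 at 2.95 to CRYAB at -2.99, and grey marks 6 genes whose difference was not called, with intervals near 0.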

How the data were processed

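RNA-seq of DLD1, NCIH838 and HUH7 cells was deposited as 1 table of TPM per gene, made by the authors with featureCounts 2.0.0 on hg38, per the submitters' processing notes. Aligner, annotation and the treatment of reads that fit several genes are not given in the sources used here. All 27166 gene IDs were found in GENCODE 29, and no gene had fewer than 10 reads in total. TPM times gene length gave whole reads, within 0.01, for 100% of values, which set the depths given. Precision is limited by 3 libraries a group: the median SE of a difference was 0.132.

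limma 3.58.1 in R 4.3.3 was fitted to log2(TPM + 1) of all 18 libraries, 1 mean for each of 6 groups, with trended and robust variance moderation and Benjamini-Hochberg adjustment. A fold change is a ratio of mean TPM, and a log2 change understates the change of low genes. Within-line p-values were adjusted over genes of at least 1 TPM in that line, those of the difference over the 13467 genes. On simulated data a first criterion for 3-fold changes over all genes was narrowly missed, and the criterion kept covers genes of at least 5 TPM. limma-voom on the recovered reads was an alternative and called 1352 higher and 1569 lower differences. In all, 25 alternatives were tried. The labels say only that replicates were biological, so p-values measure the spread between these samples.

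Named genes were, at a mean of 5 TPM or more in both lines, the largest called differences, the strongest shared and opposite calls, and from each of 29 gene lists the smallest p-values and shared calls. Other genes of the lists were added for their role in a pathway. Some genes of this choice are not reported here. The genes and lists were chosen with earlier results of these data known. HUH7 entered only the estimate of spread. Figures were drawn with matplotlib 3.10.9, in Python 3.11.15.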

Additional observations from a re-analysis of the deposited data

Results flagged for a closer look

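The genes here were singled out because the 2 lines' changes differed by limma's test of the difference itself. The values are differences of log2 changes, NCIH838 minus DLD1, and the report gives further genes of which the same holds. None was weighed for a cause.

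Larger in NCIH838 were CXCL8 (2.86), CEMIP (2.54), FOSL1 (2.14), BHLHA15 (2.14), CXCL3 (2.11), IER3 (2.07), CXCL2 (2.04) and SPRY4 (1.97). BHLHA15, a transcription factor of secretory cells, was at 3.17, 3.47 and 0.693 TPM in NCIH838 controls and 13.6, 15.9 and 12.1 TPM in KO, with 17.5 to 28 TPM in DLD1. Lower in NCIH838 were CRYAB (-2.99), OSGIN1 (-1.68), CYP4F11 (-1.61), S100P (-1.50), PPL (-1.46), FOLR1 (-1.45), ALPP (-1.39) and MARC1 (-1.38). FOLR1, a folate receptor, fell in NCIH838 from 12.9, 20.7 and 14.5 TPM to 5.32, 4.52 and 3.97 TPM and overlapped in DLD1, and its call was lost with a pseudocount of 0.1 TPM (-1.62, adjusted p = 0.21).

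Opposite calls, higher in DLD1 and lower in NCIH838, were found for GAB2 (-1.22), FAM107B (-1.08), ARRDC3 (-0.99), MAP2 (-1.33) and TIMP3 (-0.76). The reverse held for DUSP2 (1.34), OAF (1.31), EXOSC5 (0.68), SEMA4C (0.75), DUSP7 (0.97) and COQ8A (0.71). OAF went from 51.5, 54.8 and 57.6 TPM to 42.9, 41.1 and 39.5 TPM in DLD1 and from 19.4, 22.4 and 20.3 TPM to 37.1, 45.2 and 37.4 TPM in NCIH838, so that KO levels overlapped.

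Among the targeted gene and leading stress and lipid genes, the difference was called for KDSR (0.55), HSPA1A (1.65), HSPA1B (0.81), HSPA6 (-1.02), DNAJB1 (-0.26), DDIT3 (-0.87), TXNRD1 (-0.98), NQO1 (-0.56), FTL (-0.64), HMGCS1 (0.76) and INSIG1 (0.80).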

How the results depend on the processing

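Over 184 named genes and 25 alternatives, 4326 values kept the direction and the side of the threshold, 146 lost the call, 67 gained it and 44 changed sign. Of 129 named genes with a called difference, 1 changed sign: RPS2, from -0.21 to 0.15 with quantile normalization. The other 13 genes with a sign change had uncalled differences near 0. With quantile normalization PSMC4 came to -0.02, NOTUM to -0.03 and CYR61 to -0.01, with median ratio scaling JUN to 0.00, ATF4 to 0.01 and TAPBP to 0.02, and with array weights BAG3 to -0.04, AURKB to -0.03, NOTUM to -0.05, CYR61 to -0.01 and FBL to -0.02. Without mitochondrial and rRNA genes MAP1LC3B came to -0.02 and NOTUM to 0.00, and MAP1LC3B to 0.00 with a pseudocount of 0.1 TPM. Leaving out 1 library gave JUN -0.11 to 0.04, BAG3 -0.02 to 0.07, IDH2 -0.09 to 0.01, ATF4 -0.06 to 0.02, AURKB 0.00 to 0.10, PMAIP1 -0.02 to 0.13, TAPBP -0.05 to 0.04, NOTUM -0.08 to 0.11, MAP1LC3B -0.03 to 0.04 and MKI67 -0.01 to 0.15.

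Tested against a log2 change of 0.5 by limma, 104 differences were higher and 48 lower, 54 genes rose and 0 fell in DLD1, 264 rose and 165 fell in NCIH838, 30 rose and 0 fell in both and 0 were opposite, against the counts without that margin given in the report. KDSR kept its 0.55 with an adjusted p of 1.0. Array weights gave 2240 lower differences, 1142 rises and 2643 falls in DLD1, 767 shared rises, 1731 shared falls and 259 opposite calls. They also gave 9 DLD1 falls and 8 lower differences among the mitosis genes, 17 lower differences in the respiratory chain and 13 among cytosolic ribosomal proteins. Quantile normalization gave 1147 rises and 819 falls in DLD1, 775 shared rises and 507 shared falls. Median ratio scaling gave 1072 falls in DLD1 and 653 shared falls. With no filter, 11428 genes had the interval within 0.5, since more genes were tested.

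Leaving out 1 library gave 959 to 1329 higher and 802 to 1591 lower differences, 514 to 796 rises and 835 to 1820 falls in DLD1, 1836 to 2166 rises and 3087 to 3817 falls in NCIH838, 377 to 547 shared rises, 587 to 1074 shared falls, 66 to 135 opposite calls, 5723 to 6702 genes with the interval within 0.5, and 0.47 to 0.61 for KDSR. The 587 shared falls were those without DLD1 CTRL replicate 3. The labels do not say whether replicate numbers pair the samples. Same-numbered controls and KO libraries deviated with correlations of -0.0368, -0.0152 and -0.00457 in DLD1 and 0.0471, 0.127 and 0.0312 in NCIH838. Pairs of unlike number ranged from -0.025 to 0.0415 in DLD1 and from -0.089 to 0.0471 in NCIH838. These values do not settle whether samples were paired. With the replicate block 1126 differences were higher and 1042 lower. The cause of these shifts was not tested. Depth limits low genes: below about 1 TPM a log2(TPM + 1) change is small whatever the ratio.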

Other observations

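Interferon and antigen presentation genes moved in part. Of 24 measured, 8 rose and 4 fell in NCIH838, 1 rose and 2 fell in DLD1, and the difference was higher in NCIH838 for 7 and lower for 2. Over all genes 15.7% rose and 27.9% fell in NCIH838, and 5.41% rose and 12.1% fell in DLD1. The difference was higher for 9.59% of them and lower for 8.65%. The group's falls, its DLD1 rise and its lower differences were not above these shares. With median ratio scaling, with quantile normalization and with mitochondrial and rRNA genes left out, 4 rose and 1 fell in DLD1, and 12, 11 and 8 rose in NCIH838. GBP3, an interferon-inducible GTPase, went from 3.02, 3.56 and 3.05 TPM to 22.5, 22.8 and 21.4 TPM in NCIH838 and from 15, 17 and 14.4 TPM to 24.4, 24.4 and 26.6 TPM in DLD1. The controls were apart and the KO levels close, with a difference of 1.80 (95% interval 1.54 to 2.06, adjusted p = 2.92e-07 by limma).

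Of 24 ribosome biogenesis genes, 7 rose and 3 fell in NCIH838 and 5 fell in DLD1, and the difference was higher in NCIH838 for 7. Over all genes 15.7% rose and 27.9% fell in NCIH838, 12.1% fell in DLD1, and the difference was higher for 9.59% and lower for 8.65%. The group's NCIH838 falls were below that share. The DLD1 falls numbered 3 with median ratio scaling or quantile normalization or without DLD1 CTRL replicate 2 or DLD1 KDSR KO replicate 1, and 2 without DLD1 CTRL replicate 3 or DLD1 KDSR KO replicate 2. Of 58 cytosolic ribosomal protein genes, 24 fell in NCIH838 and 2 in DLD1, while the difference was lower in NCIH838 for 2. As counted here, the DLD1 falls and the lower differences were below the shares over all genes, and the NCIH838 falls above. With median ratio scaling, with quantile normalization and with mitochondrial and rRNA genes left out, the lower differences numbered 5, 6 and 7, the NCIH838 falls 16, 29 and 28 and the DLD1 falls 1, 8 and 2. Without NCIH838 CTRL replicate 2 or 3 or NCIH838 KDSR KO replicate 3 the NCIH838 falls numbered 14, 9 and 8. The DLD1 falls numbered 6 without DLD1 KDSR KO replicate 2 or NCIH838 KDSR KO replicate 2.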
